A study of Mus musculus with 25 samples.

Results

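The genes Klf2, Klf4 and Klf5 were followed through 9 lists of chromatin contacts from mouse fibroblasts, cells undergoing reprogramming and embryonic stem (ES) cells. Each entry of a list joins 2 bins of 10 kb on 1 chromosome, and each gene was represented by the single bin that the authors' gene columns in the TKO lists assign to it. These were chr8:72310001-72320000 for Klf2, chr4:55530001-55540000 for Klf4 and chr14:99290001-99300000 for Klf5, all in the mm10 build. Every listed pair that touches one of these promoter bins was taken, which gave 104 pairs over the 9 lists: 51 for Klf2, 17 for Klf4 and 36 for Klf5. The lists hold 4047 to 318622 pairs each, so the 3 loci are a small share of any of them. The pairs led to 31 partner bins, of which 12 belonged to Klf2, 8 to Klf4 and 11 to Klf5.

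Krüppel-like factors are zinc finger proteins that bind GC-rich and CACCC-type DNA. Klf2, Klf4 and Klf5 are expressed in mouse ES cells, where they act with overlapping functions in naive pluripotency. Klf4 responds to LIF and STAT3 signalling and is a reprogramming factor, Klf2 is favoured by inhibition of MEK as in 2i medium, and Klf5 is required in early embryonic lineages. Their own distal enhancers in ES cells are occupied by pluripotency factors, and the 3 proteins can bind near each other's genes. Klf4 and Klf5 are also expressed in many other tissues, mainly epithelia, and Klf2 in endothelium and lymphocytes.

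Mouse embryonic fibroblasts (MEFs) came from rtTA3-OKSM embryos, collected at E13.5, that were heterozygous for an Oct4-GFP reporter, the OKSM cassette and rtTA3. OKSM is a doxycycline-inducible cassette of the reprogramming factors Oct4, Klf4, Sox2 and Myc, so KLF4 protein in these cells can come from the transgene. MEFs were taken at passage 3 or after doxycycline and ascorbic acid for 3 days (bulk cells) or 6 days (cells sorted for SSEA1). The reference was the V6.5 ES cell line in 2i medium. Cells labelled TKO, with V6.5 and 2i named as for ES, were taken without doxycycline (0 h) or after 24 h of it. In the published study TKO denotes an inducible triple knockout of Klf2, Klf4 and Klf5; the labels and lists used here do not spell this out, and contact lists do not show whether a gene was disrupted. HiChIP, which enriches ligated contacts with an antibody, was made for H3K27ac, a mark of active promoters and enhancers, in MEF (2 libraries), ES (2), TKO 0 h (3) and TKO 24 h (3). HiChIP for KLF4 was made at day 3 (3), day 6 (4) and in ES (4), and Hi-C, which uses no antibody, in MEF (2) and ES (2). Nothing in the labels says that replicates were separate cultures or animals, so p-values measure the spread between these libraries, which may be technical.

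The 10 kb bins hold the transcription start sites but only part of each gene. Klf2 lies at chr8:72319062-72321654 on the plus strand with 36.2% of its length in the promoter bin. Klf4 lies at chr4:55527137-55532475 on the minus strand with 46.4% in the bin, and Klf5 at chr14:99298691-99313412 on the plus strand with 8.9% in the bin. The promoter sequences of Klf2 and Klf4 are shown because they lie inside the bins whose contacts are described, at chr8:72318812-72319061 and chr4:55532476-55532725. They are the 250 bases upstream of the start, 5′ to 3′ on the gene's strand, from RefSeq on GRCm38.p6, with GC boxes (GGGCGG or its complement CCGCCC) in capitals.
Klf2 promoter: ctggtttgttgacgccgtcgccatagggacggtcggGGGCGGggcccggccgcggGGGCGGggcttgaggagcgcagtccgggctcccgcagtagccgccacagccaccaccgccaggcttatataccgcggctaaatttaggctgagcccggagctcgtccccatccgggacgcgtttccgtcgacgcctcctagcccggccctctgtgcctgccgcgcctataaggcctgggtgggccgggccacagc
Klf4 promoter: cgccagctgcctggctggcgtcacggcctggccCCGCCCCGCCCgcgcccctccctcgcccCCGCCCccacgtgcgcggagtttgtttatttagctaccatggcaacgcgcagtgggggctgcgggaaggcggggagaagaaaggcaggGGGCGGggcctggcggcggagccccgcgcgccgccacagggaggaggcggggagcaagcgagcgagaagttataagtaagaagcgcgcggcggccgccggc
The Klf2 window held 2 GC boxes and the Klf4 window 4, searched on both strands, and 1 box of Klf4 overlaps another by a base. Of 32851 promoter windows of that length in the same table, 32.7% held at least 1. The KLF core GGGNGTGG was in neither window and in 15.9% of all windows. CACCC was found once in Klf2 and not in Klf4, against 52.0% of all windows. GC content was 71.2% in Klf2 and 74.0% in Klf4, above the median of 52.4% over all windows. A match is a description of letters, not a bound site.

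Strength is given as the authors' CPM, the count of a pair divided by the contacts of its chromosome in that library and scaled to 1000000. The lists were filtered before deposit: CPM was above 3 in every H3K27ac library, and in replicates 1 and 2 of the KLF4 lists, at each listed pair. A pair that a list lacks has no value here, and it need not be weak. Some bins were missing as a whole: the bin 10 kb upstream of Klf5 had 0 pairs of any kind in ES H3K27ac. Other filters are not stated, and why a pair is missing was not tested. HiChIP libraries held 48.7 M to 181.0 M contacts, and the pairs described here had 7 to 536 counts per library, so weak pairs carry wide counting error. A HiChIP count rises with the frequency of a contact, with the share of cells that have it and with the mark or factor at either end, and these cannot be told apart. The cell labels were checked by listed H3K27ac pairs at marker genes. The 6 annotated pluripotency markers of 8, Nanog and Pou5f1 among them, had 0 to 1 pairs each in MEF and 7 to 23 in ES. Of the 7 annotated fibroblast markers of 12, 6 had fewer pairs in ES than in MEF, with Fn1 as the exception.

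In the H3K27ac lists all 3 promoter bins gained pairs between MEF and ES. Klf2 had 1 listed pair in MEF and 11 in ES, Klf5 had 0 and 8, and Klf4 had 2 and 4. The TKO cells at 0 h resembled ES in number, with 10 pairs for Klf2, 10 for Klf5 and 6 for Klf4. After 24 h of doxycycline Klf2 had 10 and Klf5 had 11, whereas Klf4 had 3. The KLF4 lists were thinner: at day 3 Klf2 had 3 pairs and the other genes 0, at day 6 none of the genes had a pair, and in ES Klf2 had 3, Klf5 had 3 and Klf4 had 1. Hi-C listed 4 pairs for Klf2 in MEF and 9 in ES, 0 and 4 for Klf5, and 1 and 0 for Klf4. The day 6 list as a whole held only 4047 pairs, so a gene without a pair there is no measure of absence.

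**Figure D1:**
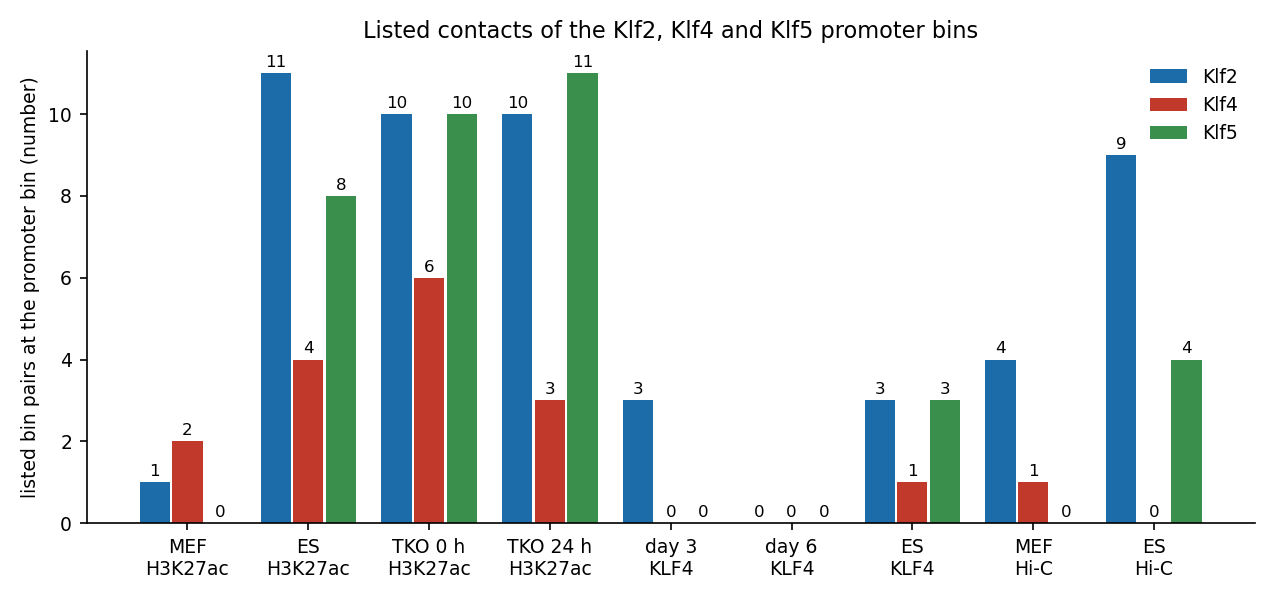
Number of listed bin pairs (y axis) that touch the promoter bin of Klf2, Klf4 or Klf5 in each of the 9 contact lists (x axis). In H3K27ac HiChIP the bars rise from 0 to 2 pairs in MEF to 4 to 11 in ES, and only the Klf4 bar is lower by more than 1 pair in TKO cells at 24 h than at 0 h.

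Counts of listed pairs were set against the other listed bins of the same chromosome. In ES H3K27ac, 5.02% of the 1972 listed bins of chromosome 8 had as many pairs as Klf2 or more, 13.0% of 1960 bins of chromosome 14 matched Klf5, and 34.6% of 2266 bins of chromosome 4 matched Klf4. In MEF H3K27ac the single Klf2 pair was matched by 100% of listed bins, and the chromosome median was 2. Over all 10485 bins with an authors' gene name, 64.2% had more H3K27ac pairs in ES than in MEF and 15.3% had fewer. A gain of pairs was thus the usual direction for gene bins, and the 3 loci shared it.

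Klf2 had the strongest contact of the 3 genes, with the bin 20 kb downstream at chr8:72330001-72340000. This bin lies between the end of Klf2 and Eps15l1, a gene of endocytosis, and overlaps no RefSeq gene. H3K27ac CPM there was 45.8 and 52.6 in the ES libraries, 52.7, 60.7 and 60.5 in TKO at 0 h, and 51.1, 52.7 and 45.5 at 24 h. It was the strongest Klf2 pair in each of these 3 lists and in the KLF4 list of ES. The pair was in neither Hi-C list and not in the MEF list. ES Hi-C did list the bins 10 and 30 kb downstream, so the missing pair is no measure of a weak Hi-C signal. The bin itself had 26 listed H3K27ac pairs in ES against 1 in MEF.

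The next strongest Klf2 pairs were close to the gene. The bin 10 kb upstream, at chr8:72300001-72310000, overlaps the long non-coding RNA Gm40505 and the pseudogene Gm10282 and was the 1 partner of any of the 3 genes present in all 4 H3K27ac lists. Its CPM was 8.02 and 7.80 in MEF, 23.5 and 26.5 in ES, 21.0, 26.2 and 25.1 in TKO at 0 h and 23.9, 30.0 and 23.1 at 24 h. MEF lay below every pluripotent library, while the other 3 groups overlapped. The share of all pairs with MEF apart in this way was not counted. The bin 10 kb downstream, which holds the 3′ part of Klf2, had 20.2 and 22.3 in ES and 19.5 to 27.1 over the 6 TKO libraries. Contact frequency falls with distance in such assays, so pairs of neighbouring bins are high in general.

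Beyond these, Klf2 contacts reached 50 kb upstream and 60 kb downstream. The bin 20 kb upstream, at chr8:72290001-72300000, was present in 7 of the 9 lists, with 14.9 and 17.7 CPM in ES. Upstream bins at 30 to 50 kb had 7.59 to 9.71 CPM in ES, and 2 of them overlap the long non-coding RNA Gm51537. Downstream bins at 30 to 60 kb, all within Eps15l1, fell off from 11.3 and 10.7 to 3.60 and 3.34 CPM. The 60 kb pair, at chr8:72370001-72380000, was the longest in ES and was in neither TKO list. In TKO the longest were 50 kb on either side, at chr8:72260001-72270000 with 9.22, 9.05 and 8.86 CPM at 0 h and 6.79, 8.15 and 7.46 at 24 h, and at chr8:72360001-72370000 with 5.53, 4.76 and 3.80 at 0 h and 5.91, 7.96 and 4.48 at 24 h.

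**Figure D2:**
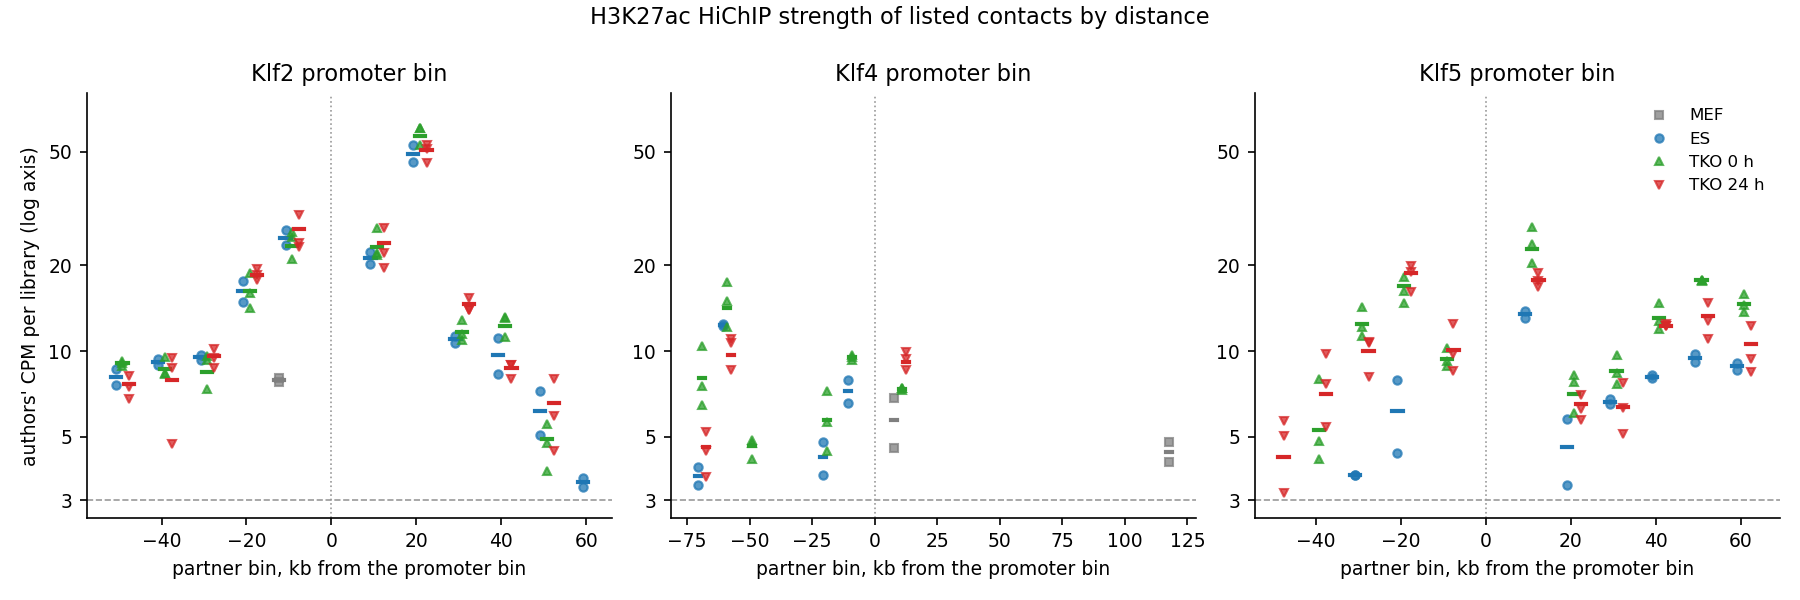
Authors' CPM of listed H3K27ac pairs (log axis) against the position of the partner bin in kb from the promoter bin, in genome direction, for each gene; points are libraries, short bars are group means with joined libraries counted once, and the dashed line is the filter at 3. Klf2 peaks at 20 kb with 45.5 to 60.7 CPM, Klf4 has its strongest partner at 60 kb on the downstream (left) side, and Klf5 has partners on both sides.

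Klf4 differed from Klf2 and Klf5 in where its partners lay. Since it is on the minus strand, lower coordinates are downstream, and its strongest H3K27ac partner in ES was 60 kb downstream at chr4:55470001-55480000. CPM there was 12.5 and 12.3 in ES, 12.2, 15.01 and 17.4 in TKO at 0 h, and 10.6, 8.61 and 10.98 at 24 h. The neighbouring bin 70 kb downstream, at chr4:55460001-55470000, was the longest partner in these lists and holds the small nucleolar RNA gene Gm22150. It had 3.93 and 3.38 CPM in ES, 7.56, 10.5 and 6.48 in TKO at 0 h and 3.63, 5.20 and 4.47 at 24 h. For both bins every library at 24 h lay below every library at 0 h, as for 17.2% of the 67728 pairs in both TKO lists.

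The remaining Klf4 partners were weak or near. The bins 10 and 20 kb downstream had 6.58 and 7.92, and 4.81 and 3.67 CPM in ES, and 9.31 to 9.69 and 4.45 to 7.22 in TKO at 0 h, and neither was listed at 24 h. A bin 50 kb downstream was listed in TKO at 0 h alone, with 4.75, 4.18 and 4.86 CPM. The adjacent upstream bin, at chr4:55540001-55550000 with the long non-coding RNAs Gm12506 and Gm34343, had 4.58 and 6.85 CPM in MEF, 7.42, 7.41 and 7.29 in TKO at 0 h and 9.91, 8.61 and 9.35 at 24 h. It was the strongest Klf4 pair in MEF and was not in the ES H3K27ac list. The other MEF pair, 120 kb upstream at chr4:55650001-55660000, had 4.80 and 4.08 CPM and was in none of the pluripotent lists. MEF and ES shared none of their Klf4 H3K27ac partners. Each MEF partner bin had 0 pairs of any kind in the ES H3K27ac list, so whole bins are unlisted there and not only these pairs. Over all loci 17901 pairs were in both lists, of 60870 in MEF and 75466 in ES, so most MEF pairs were not shared.

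Klf5 had no H3K27ac pair in MEF and partners on both sides in pluripotent cells. The strongest in ES and in TKO at 0 h was the adjacent bin 10 kb downstream, at chr14:99300001-99310000, which holds most of the Klf5 gene. It had 13.1 and 13.8 CPM in ES, 20.3, 27.1 and 23.7 in TKO at 0 h and 16.8, 17.7 and 18.7 at 24 h. The strongest at 24 h was the bin 20 kb upstream, at chr14:99270001-99280000, with 16.2, 19.9 and 19.0 CPM against 18.2, 14.8 and 16.2 at 0 h and 4.40 and 7.90 in ES. That bin overlaps no RefSeq gene, and its libraries at 0 h and 24 h overlapped.

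Downstream of the Klf5 gene lay a run of partners from 30 to 60 kb. The 50 kb bin, at chr14:99340001-99350000, had 9.78 and 9.17 CPM in ES, 17.8, 17.7 and 17.7 in TKO at 0 h and 12.8, 14.7 and 11.1 at 24 h. The 60 kb bin, at chr14:99350001-99360000, was the longest in ES and TKO 0 h and had 9.08 and 8.61 in ES, 14.5, 15.8 and 13.7 at 0 h and 8.41, 12.2 and 9.36 at 24 h. These 2 bins were themselves rich in contacts, with 17 and 16 listed pairs in ES and 30 and 31 in TKO at 0 h. On the other side the partners reached into Pibf1, a gene of centrosome and cilium function: a bin 40 kb upstream was listed in both TKO lists and one 50 kb upstream, at chr14:99240001-99250000, at 24 h alone with 5.05, 3.17 and 5.67 CPM.

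The comparison of MEF with ES could be tested only on pairs that both H3K27ac lists hold. Raw counts were tested with edgeR's quasi-likelihood test and Benjamini-Hochberg adjustment over all 17901 such pairs, of which 32.0% were called at an adjusted p under 0.05. Of the calls 3152 were higher and 2569 lower in ES, or 4831 and 1426 with contact totals as the only scaling, which moved the median log2 change of all pairs from -0.04 to 0.21. Of the 3 genes' partners 1 qualified, the Klf2 bin 10 kb upstream. It rose 3.21-fold from MEF to ES (log2 1.68, SE 0.17, adjusted p = 9.9e-12 by edgeR, n = 2 and 2). A sum of counts over all shared pairs of a bin was also tested, where 39.6% of 16580 bins were called; for Klf2 it consists of that pair alone. Klf4 and Klf5 had no pair in both lists, so their gains are differences in listing, which were not tested.

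KLF4 HiChIP addressed where KLF4 itself sits at contacts during reprogramming and in ES cells. At day 3 Klf2 alone had listed pairs, and the same 3 partners were listed in ES: 10 and 20 kb upstream and 20 kb downstream. The 20 kb downstream pair had 5.65, 3.73 and 3.38 CPM at day 3 and 7.40, 7.62, 9.49 and 10.6 in ES, with no overlap between the groups. How many of all pairs were separated in this way was not counted. The 20 kb downstream pair was 2.82-fold higher in ES (SE 0.21 on the log2 scale, edgeR adjusted p = 7.2e-08), where 7.20% of the 7387 pairs in both lists were called. Scaled by the contact totals of each chromosome, its log2 change was 1.18 in place of 1.5 (edgeR adjusted p = 0.00026). The ES libraries counted as n = 2 here, because a chi-square test of their counts did not separate replicates 1 and 2 (p of 0.438) or 3 and 4 (p of 0.903) at the limit of 0.01 used for joining.

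The 2 upstream Klf2 pairs did not pass that test. At 10 kb upstream CPM was 9.80, 4.92 and 5.75 at day 3 and 6.14, 8.83, 7.12 and 7.38 in ES, so the groups overlapped (log2 0.54, SE 0.21, edgeR adjusted p = 0.093). The pair passed without ES replicate 1 (log2 0.65, edgeR adjusted p = 0.042). With the contact totals of each chromosome as scaling it was further from passing (log2 0.22, edgeR adjusted p = 0.74). At 20 kb upstream CPM was 4.14, 4.62 and 4.62 at day 3 and 3.61, 6.09, 4.53 and 5.13 in ES (log2 0.35, SE 0.23, edgeR adjusted p = 0.41). Chromosome totals gave log2 0.06 there (edgeR adjusted p = 0.96). The strongest KLF4 pair of Klf2 was thus the 10 kb upstream one at day 3 and the 20 kb downstream one in ES. No test was made of whether the 3 changes differ from each other.

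In ES cells KLF4 pairs were also listed at the Klf5 and Klf4 promoter bins. Klf5 was paired with its bin 10 kb downstream at 8.41, 7.98, 9.66 and 6.71 CPM, with the bin 20 kb upstream at 5.78, 5.76, 4.23 and 3.13, and with the bin 30 kb downstream, at chr14:99320001-99330000, at 3.42, 3.10, 4.23 and 3.80. All 3 were also H3K27ac partners in ES. Klf4 had only the adjacent upstream bin, at 4.99, 5.82, 5.10 and 3.79 CPM. Its partners 60 and 70 kb downstream were in no KLF4 list. At day 6 no pair of the 3 genes was listed, so comparisons with day 6 had nothing to test at these loci.

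**Figure D3:**
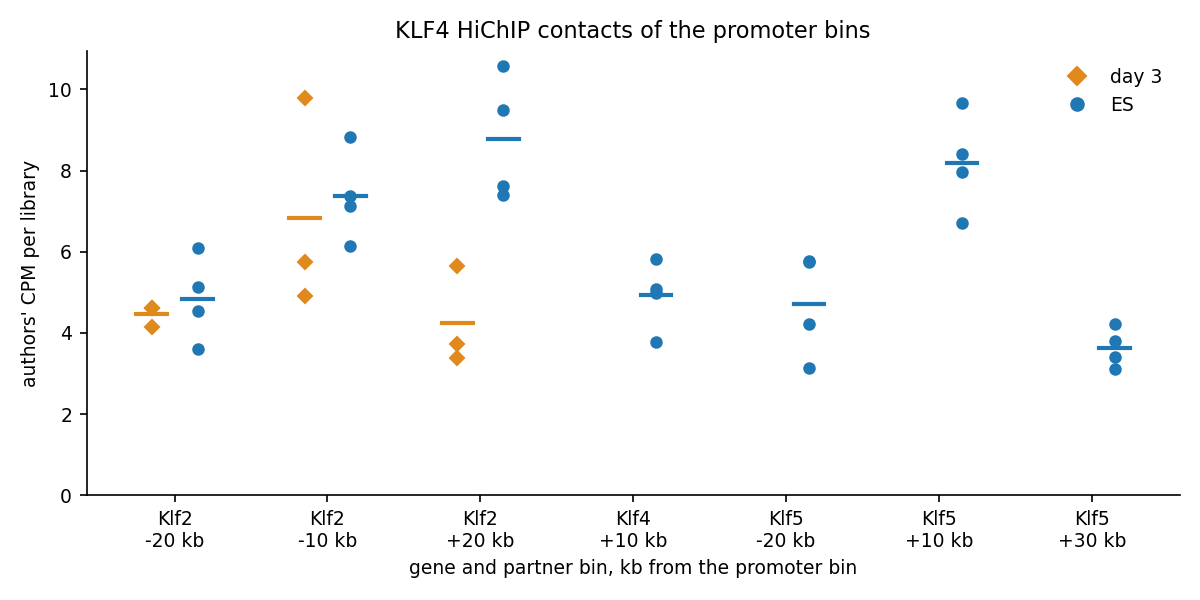
Authors' CPM in KLF4 HiChIP (y axis) for each listed pair of the 3 promoter bins (x axis, partner position in kb in genome direction); points are libraries and short bars are means, at day 3 and in ES. Only Klf2 has day 3 points, and at 20 kb the 3 day 3 libraries (3.38 to 5.65) lie below the 4 ES libraries (7.40 to 10.6).

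Hi-C gave an antibody-free view, although its signal column is scaled per chromosome by constants of unknown origin and none of its values lies under 15. At Klf2 the MEF list held upstream partners only, at 10, 20, 40 and 50 kb, whereas the ES list held 3 upstream and 6 downstream partners. The strongest in MEF was 10 kb upstream with a signal of 55.9 and 48.0, and in ES 10 kb downstream with 41.6 and 52.6. The longest in MEF was 50 kb upstream with 19.5 and 22.7, and in ES 80 kb downstream, at chr8:72390001-72400000 in Eps15l1, with 19.1 and 15.4. Of the 2 Klf2 pairs in both Hi-C lists, the one 40 kb upstream had log2 0.27 (SE 0.29) and the one 20 kb upstream log2 0.26 (SE 0.24) from MEF to ES. Neither was called by edgeR (adjusted p of 1 and 0.98), in a table where 0.0322% of 124204 pairs were.

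At Klf5 Hi-C listed no pair in MEF and 4 in ES: 20, 30 and 40 kb upstream and 30 kb downstream. The strongest was 20 kb upstream with 36.4 and 42.6, and the longest 40 kb upstream, at chr14:99250001-99260000 in Pibf1, with 28.3 and 23.0. All 4 were also H3K27ac partners in both TKO lists. Klf4 had a single Hi-C pair, in MEF, with the bin 110 kb upstream at chr4:55640001-55650000 and a signal of 19.1 and 22.6. None of the H3K27ac partners of Klf4 was in a Hi-C list at its promoter bin, and the strongest ES H3K27ac contacts of Klf2 and Klf5 were absent from the Hi-C lists too. Absence from a Hi-C list is no measure of a low signal. The Klf2 bins 10 and 30 kb downstream, on either side of the missing one, had 41.6 and 52.6, and 33.2 and 43.5 in ES. Why the pair between them is missing was not tested.

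TKO cells, described in the published study as an inducible knockout of these genes, were compared at 0 h and 24 h of doxycycline. No ES line without the knockout was given doxycycline, and the bins are the loci named in it. Loss of the proteins, a change of the loci themselves and doxycycline exposure therefore cannot be told apart. Klf2 had the same 10 partners at both times, Klf5 had the same 10 plus the one 50 kb upstream, and Klf4 had 3 of its 6 partners left. Over all loci 67728 of the 93248 pairs listed at 0 h were also listed at 24 h. Of all gene bins 47.8% had fewer pairs at 24 h and 23.9% had more. Of the 23 pairs in both lists 1 was called, or 1 of 3 for Klf4 and 0 of 10 each for Klf2 and Klf5. The table as a whole had 2.62% of 67728 pairs called, 0.576% higher at 24 h and 2.04% lower. These were 390 called pairs higher and 1384 lower, or 155 and 2670 with contact totals as the only scaling, which moved the median log2 change of all pairs from 0.01 to -0.10.

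The called pair was the Klf4 bin 70 kb downstream, which fell by 0.75 on the log2 scale (SE 0.21, edgeR adjusted p = 0.02), a level 0.593 times that at 0 h. Each time counted as n = 2, since the chi-square test did not reach 0.01 between replicates 2 and 3 at 0 h (p of 0.049) or 1 and 3 at 24 h (p of 0.119). With all libraries separate the value was also -0.75 (edgeR adjusted p = 0.017). The call was lost without replicate 2 at 0 h (log2 -0.57, adjusted p = 0.25), replicate 1 at 24 h (log2 -0.66, adjusted p = 0.12) or replicate 3 at 24 h (log2 -0.74, adjusted p = 0.079). The pair 60 kb downstream had log2 -0.46 (SE 0.15, edgeR adjusted p = 0.072). It passed with contact totals as the only scaling (log2 -0.57, edgeR adjusted p = 0.017) and with those of each chromosome (log2 -0.55, edgeR adjusted p = 0.023). It did not pass without replicate 2 at 0 h (log2 -0.46, edgeR adjusted p = 0.14) or replicate 3 at 0 h (log2 -0.35, edgeR adjusted p = 0.36). Over left-out libraries its log2 change ran from -0.60 to -0.32. Both ends came from fits in which 1 of the times had only a single joined value. The adjacent upstream bin went the other way without passing, at log2 0.41 (SE 0.18, edgeR adjusted p = 0.26).

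The Klf2 contacts showed no call at 24 h. Log2 changes of its 10 pairs ran from -0.39 at 40 kb downstream to 0.50 at 50 kb downstream, with SE of 0.11 to 0.23, 6 of them above 0 and 4 below. Its strongest pair, 20 kb downstream, had log2 -0.08 (SE 0.11, edgeR adjusted p = 0.83). For Klf5 the 10 values ran from -0.41 at 60 kb downstream to 0.52 at 40 kb upstream, with 4 above 0 and 6 below. By unadjusted p under 0.05, 5 Klf2 pairs (4 higher), 4 Klf5 pairs (1 higher) and all 3 tested Klf4 pairs (1 higher) would have counted, where 13.6% of all 67728 pairs did, but of the Klf2 and Klf5 pairs none held after adjustment, the lowest adjusted p by edgeR being 0.16 and 0.24. DESeq2 called none of the 23 pairs and gave no adjusted p for 19 of them.

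Seen library by library, 3 of the 10 Klf2 pairs, 2 of the 3 Klf4 pairs and 4 of the 10 Klf5 pairs had all 24 h values of CPM below all 0 h values, where 17.2% of all shared pairs did. The opposite held for 1 Klf2 pair, 1 Klf4 pair and 0 Klf5 pairs, against 3.90% of all. CPM carries no TMM correction, and the share of all pairs that is lower moves with that choice.

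Sums of counts over the shared pairs gave 1 value per gene. Scaled to 1000000 contacts of the library, the Klf4 sum over 3 pairs was 1.66, 2.02 and 1.91 at 0 h and 1.46, 1.36 and 1.5 at 24 h (log2 -0.26, SE 0.10, edgeR adjusted p = 0.072). It passed with contact totals as the only scaling (log2 -0.36, adjusted p = 0.0066) and without replicate 1 at 0 h (log2 -0.33, adjusted p = 0.037). The Klf2 sum over 10 pairs was 8.12, 9.37 and 8.66 at 0 h and 7.98, 9.27 and 8.08 at 24 h (log2 0.09, SE 0.06, edgeR adjusted p = 0.43). The Klf5 sum over 10 pairs was 5.37, 5.76 and 5.74 at 0 h and 4.80, 5.03 and 4.72 at 24 h (log2 -0.10, SE 0.07, edgeR adjusted p = 0.45). All 24 h libraries lay below all 0 h libraries for Klf4 and Klf5, as for 24.6% of all bins, while the Klf2 libraries overlapped. None of the 3 sums was called, where 9.35% of 40534 bins were.

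**Figure D4:**
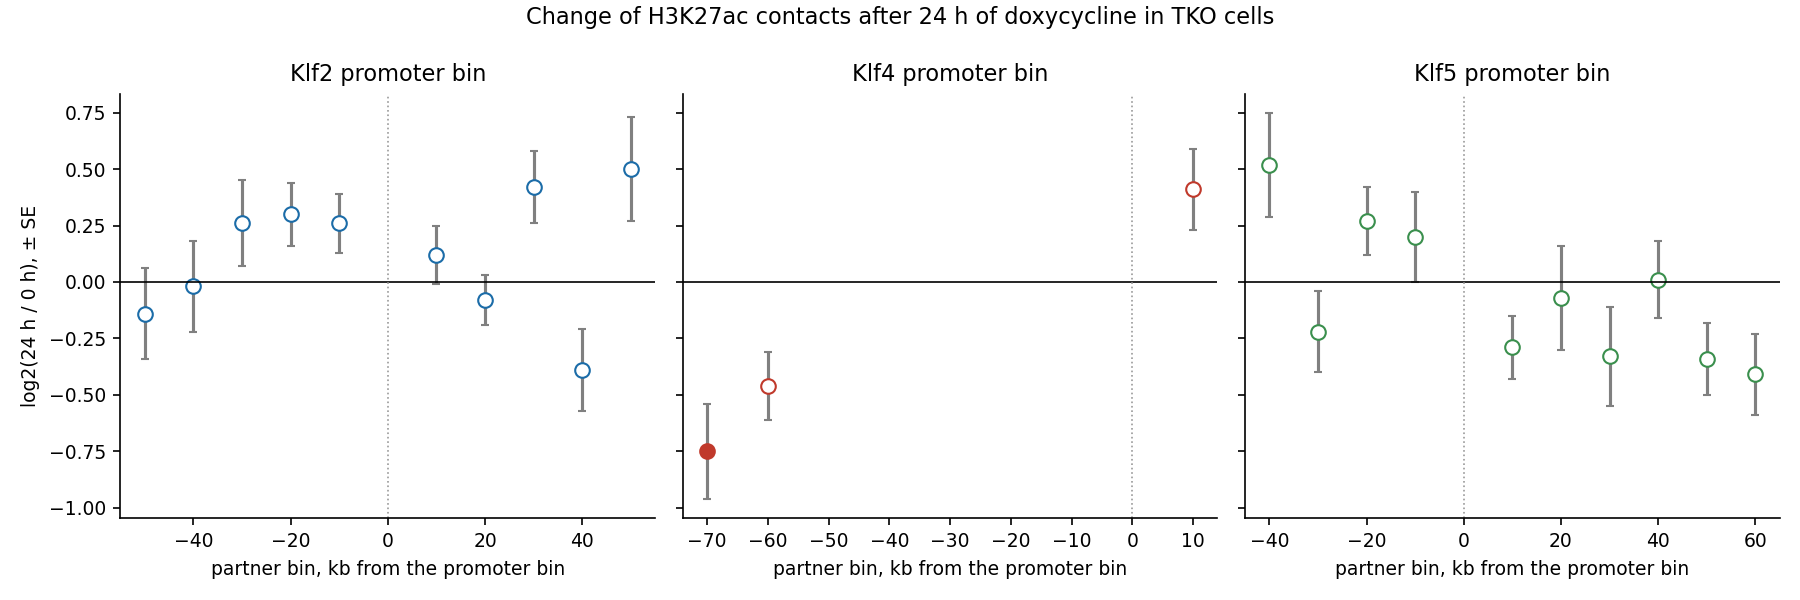
Log2 change of H3K27ac contacts from 0 h to 24 h of doxycycline in TKO cells (y axis, edgeR estimate with bars of 1 SE) by partner position in kb from the promoter bin (x axis, genome direction), for the 23 pairs in both lists; the filled point is the pair called at an adjusted p under 0.05. The filled point is the Klf4 pair 70 kb downstream at -0.75, and the Klf2 and Klf5 points lie between -0.41 and 0.52.

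The domain lists, 1 set per cell type in steps of 40 kb and with no replicate values, placed a boundary between Klf4 and its partners 60 and 70 kb downstream. In ES the domain that holds the Klf4 promoter begins at chr4:55520001, 10 kb from the start of the promoter bin, and in MEF at chr4:55480001, 50 kb from it. Of the Klf4 H3K27ac pairs 3 of 4 in ES, 4 of 6 in TKO at 0 h and 2 of 3 at 24 h crossed the ES domain start. Over all pairs with both ends in a domain 2.06%, 2.08% and 1.7% crossed a boundary of the ES set. By the MEF set 2 of the Klf4 pairs, those 60 and 70 kb downstream, crossed in each of these lists, against 3.87%, 3.8% and 3.2% of all pairs. A pair that reaches further downstream than the border must cross it, so these counts follow from the position of the bin and the distance of its partners. The shares over all pairs were not limited to bins near a border. A step of 40 kb places a boundary coarsely against bins of 10 kb, and the position was not tested.

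No pair of Klf2 or Klf5 crossed a domain border in either set. Klf5 lay in a domain of 880 kb, chr14:99040001-99920000, that was the same in MEF and ES. Klf2 lay in a domain of 1200 kb in MEF, chr8:72160001-73360000, and of 6520 kb in ES, chr8:68760001-75280000. The Klf2 promoter bin is 150 kb from the nearer border in MEF, beyond the reach of all its listed partners.

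**Figure D5:**
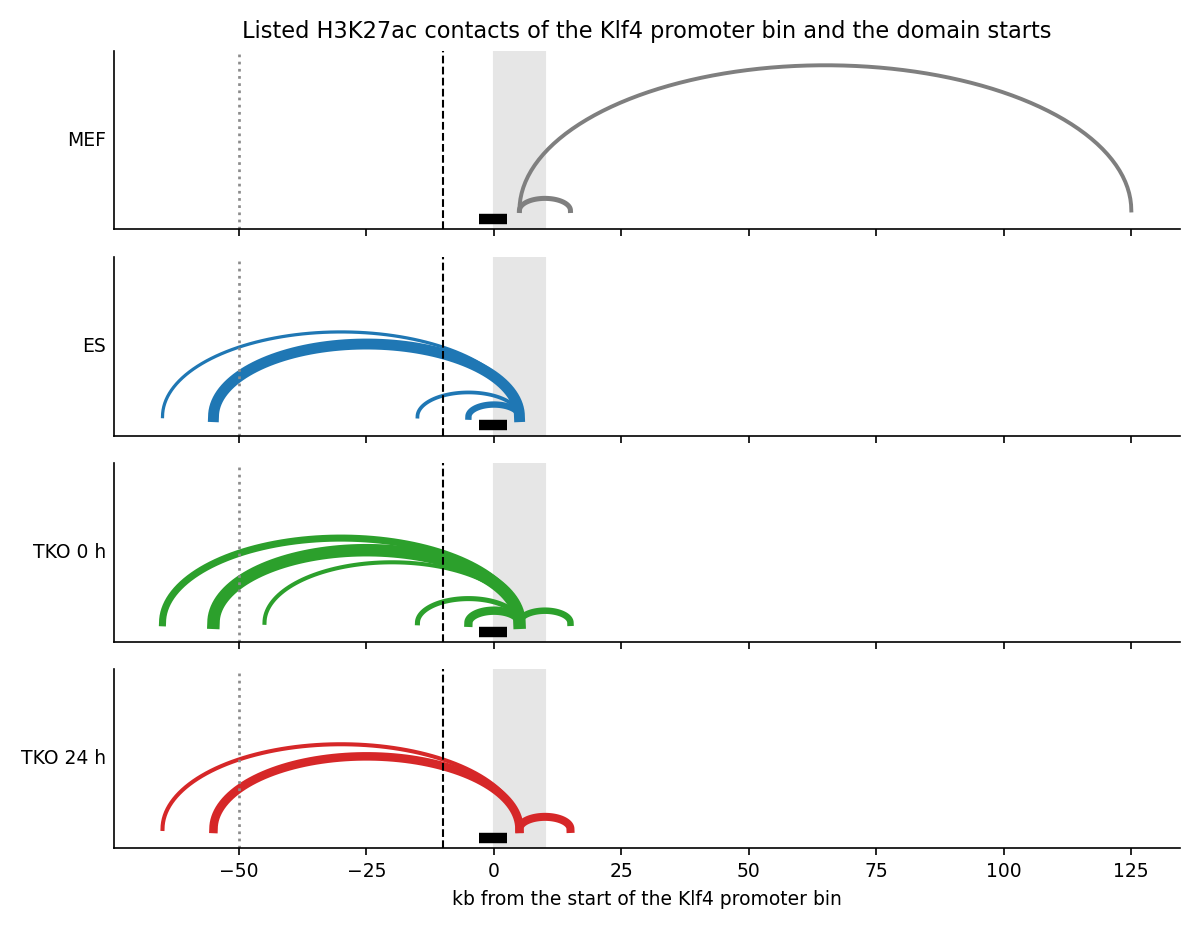
Listed H3K27ac pairs of the Klf4 promoter bin (grey band) drawn as arcs by partner position in kb (x axis), with line width proportional to mean CPM and height to distance, in MEF, ES, TKO 0 h and TKO 24 h; the black bar is the gene, the dashed line the ES domain start and the dotted line the MEF domain start. The arcs point upstream (right) in MEF, and those 60 and 70 kb downstream (left) in the other groups cross both lines.

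TKO cells at 0 h were also set against ES, a comparison added after values had been seen. Their libraries were made by a different protocol from those of ES, so line and library preparation cannot be told apart. Klf5 contacts were stronger in TKO: all 8 shared pairs had values above 0, and 5 were called by edgeR, where 16.5% of 58574 pairs were called, 9.14% higher and 7.39% lower. That split became 29.4% higher and 1.64% lower with contact totals as the only scaling, and 28.9% and 1.53% with those of each chromosome. The pair 30 kb upstream, at chr14:99260001-99270000, had 3.69 and 3.67 CPM in ES and 12.2, 11.3 and 14.3 in TKO at 0 h (2.83-fold, SE 0.21 on the log2 scale, edgeR adjusted p = 6.2e-08). The pair 20 kb upstream rose 2.25-fold (log2 1.17, SE 0.19, edgeR adjusted p = 1.5e-06). The other called Klf5 pairs, at 10, 50 and 60 kb downstream, were 1.38-fold to 1.56-fold higher. The Klf4 pair 70 kb downstream was 1.81-fold higher (log2 0.85, SE 0.20, edgeR adjusted p = 0.001), while its neighbour at 60 kb had log2 -0.07 (SE 0.13).

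The sign for Klf2 in that comparison depended on the scaling. All 10 Klf2 pairs had values below 0 and 8 were called, from log2 -0.96 at 50 kb downstream to -0.38 at 20 kb downstream. With the contact totals of each chromosome as scaling 6 were above 0, 4 below and none was called, and with contact totals as the only scaling 9 were below 0 and 3 were called. These 2 scalings moved the median of all pairs to 0.29 in both cases, from -0.01. The chromosome-scaled CPM of Klf2 at 20 kb downstream was not lower in TKO (52.7 to 60.7) than in ES (45.8 to 52.6). For Klf5, 8 of 8 pairs were above 0 under each of these scalings and 7 were called under both alternatives, where 29.4% and 28.9% of all pairs were called higher. Bin sums, called in 29.3% of 34782 bins, were log2 0.60 for Klf5 (SE 0.07, edgeR adjusted p = 1.3e-10), -0.55 for Klf2 (SE 0.05, edgeR adjusted p = 7.2e-12) and 0.13 for Klf4 (SE 0.08, edgeR adjusted p = 0.28). They moved with scaling too: with contact totals alone they were 0.94 for Klf5, -0.21 for Klf2 (edgeR adjusted p = 0.015) and 0.46 for Klf4. Sums were not fitted with the contact totals of each chromosome.

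Most partner bins carried the mark themselves. The authors' columns give H3K27ac ChIP peaks per bin in TKO cells, and 26 of the 31 partner bins had a peak at both 0 h and 24 h. Over the 54825 bins of the TKO lists 45.6% did. The bin 30 kb upstream of Klf2 and the adjacent upstream bin of Klf4 had a peak at 24 h only, as did 3.9% of all bins, and the bin 80 kb downstream of Klf2 had none. The 2 MEF partners of Klf4 at 110 and 120 kb were in neither TKO list. H3K27ac HiChIP pairs are enriched for such peaks by the antibody, so the share is not independent of the assay. None of the 31 bins carries a gene name in the authors' columns, and 17 overlap a RefSeq gene, among them the neighbours Eps15l1 and Pibf1 and the Klf genes' own bodies.

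The partners of a gene were also listed with each other. For the partners found in any H3K27ac list of ES or TKO cells, 11 for Klf2, 6 for Klf4 and 11 for Klf5, 47 of the 55 possible pairs among Klf2 partners were in the ES H3K27ac list, 44 in TKO at 0 h, 45 at 24 h and 2 in MEF. Among Klf5 partners 28 of 55 were listed in ES, 46 at 0 h, 47 at 24 h and 1 in MEF. Among Klf4 partners it was 8 of 15 in ES, 11 at both TKO times and 0 in MEF. The partner bins were taken from the ES and TKO lists themselves, so more pairs there than in MEF were favoured in advance. Runs of neighbouring bins at other loci were not counted for comparison. Hi-C listed 27 of the Klf2 pairs in MEF and 47 in ES, 10 and 17 of the Klf5 pairs, and none of the Klf4 pairs in either. The number of listed pairs within the Klf4 neighbourhood was thus equal at 0 h and 24 h, while the promoter bin itself went from 6 to 3.

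Gene bins with the most similar numbers of listed pairs were sought among 10484 others, by Euclidean distance over log2(pairs + 1) in the 9 lists. Nearest to Klf5 was Dppa3, a gene of naive pluripotency and the germ line, at a distance of 0.304, with 0, 9, 10 and 9 H3K27ac pairs in MEF, ES, TKO 0 h and TKO 24 h. The next were 1500009C09Rik at 0.405 and Triml2 at 0.551. Nearest to Klf2 were Gm12981 (0.616), Pcif1 (0.708) and the bin of Ckb and Trmt61a (0.717). Klf4 had no close match: Gmnn, Arf1 and Gm11715 were at 1.11 to 1.22.

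Other genes of the family and of the pluripotency network give the setting. Among 17 annotated genes of 23 other KLF and SP factors, 16 had more H3K27ac pairs in ES than in MEF and 1, Klf6, had fewer. In TKO at 24 h 5 had more and 9 fewer than at 0 h, and 3 of their 109 tested pairs were called, all lower, or 2.75% against 2.62% of the table. Among 23 annotated genes of 25 of the naive network and LIF pathway, 18 had more pairs in ES than in MEF and 3 fewer. At 24 h 3 had more and 14 fewer, and 13 of their 154 tested pairs were called, all lower, or 8.44%. Over all gene bins 23.9% had more pairs and 47.8% fewer at 24 h. The median log2 change at 24 h was -0.01 for the KLF and SP pairs, -0.04 for the pluripotency pairs and 0.01 for all.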

How the data were processed

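Reads were aligned with Bowtie2 2.2.3 to mm10, per the submitters' processing notes; the contact caller and the test behind the deposited FDR are not given in the sources used here. Per the file headers, each list of the authors gives raw counts, a CPM value, a ratio to an expected count for the distance (not used) and an FDR, an adjusted p-value, per bin pair. In HiChIP the deposited CPM is the count over the contacts of that chromosome in each library, times 1000000, as count over CPM shows. The deposited Hi-C signal is scaled by constants not stated. The authors' domain files give coordinates and a score per domain, of which only the coordinates were used. Raw counts of pairs in both lists of a comparison were tested with edgeR 4.0.16 in R 4.3.3 (glmQLFit, glmQLFTest, filterByExpr, TMM; library sizes were contact totals, or the summed counts in Hi-C), with Benjamini-Hochberg adjustment over the whole table and calls at an adjusted p under 0.05. A test on shared pairs says nothing of pairs in 1 list. Libraries of a group were compared by a chi-square test, and those with p above 0.01, in a group where others differed, were summed and counted once; the 4 day 6 libraries did not differ and stayed separate. On simulated data with 2-fold changes in 200 features, the step recovered 71% of pairs for MEF and ES H3K27ac (17901 features), 85% for KLF4 day 3 and ES (7387), 68% for TKO (67728) and 24% for Hi-C (127440). Alternatives were contact totals without TMM, contact totals of each chromosome, DESeq2 1.42.0, no filter, all libraries separate, a replicate block and each library left out; for numbers of listed pairs, the authors' FDR, distance, a wider window and 1 count cutoff.

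Pairs named in full were the strongest and the longest of each gene in each list, called pairs and those in all 4 H3K27ac lists or in 6 or more lists. Members and gene lists were chosen with earlier results of these data known, so nothing shown is independent of them. Gene positions and promoter windows came from RefSeq on GRCm38.p6, the same build as mm10; 2 of the 3 genes had a promoter entry. Python 3.11.15 was used.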

Additional observations from a re-analysis of the deposited data

How the results depend on the processing

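Limits come first from depth and listing: member pairs held 7 to 536 counts per library, and pairs that a list lacks have no values, whatever the reason. The number of pairs called among those tested for the 3 genes was the same under all alternatives for H3K27ac in MEF and ES (1), for Hi-C (0) and for both comparisons with day 6 (0). For KLF4 at day 3 and in ES it was 1 to 2 over left-out libraries, with 2 without ES replicate 1. For TKO at 0 h and 24 h it was 1, but 2 with contact totals without TMM, 2 with those of each chromosome, 0 with DESeq2, which gave no adjusted p for the called pair, and 0 to 2 over left-out libraries. For ES and TKO 0 h, added after seeing the data, it was 14, but 8 with chromosome totals, 3 with DESeq2 and 10 to 13 over left-out libraries. The Klf2 pair 20 kb downstream there reversed from log2 -0.38 to 0.21 with chromosome totals. The Klf4 bin sum became called at 24 h with contact totals (-0.36) and without TKO 0 h replicate 1 (-0.33; -0.33 to -0.19 over left-out libraries), and between ES and TKO 0 h with contact totals (0.46). Klf4 and Klf5 gave no MEF and ES bin sum, having no shared pair. Over whole tables, MEF and ES had 5721 calls, 2458 with DESeq2 and 3333 without MEF replicate 2. KLF4 day 3 and ES had 532, against 284 with contact totals, 265 with chromosome totals, 72 with DESeq2 and 135 to 578 over left-out libraries. TKO had 1774, against 2825, 2776, 121 and 1028 to 1205. ES and TKO 0 h had 9678, against 18163, 17840, 1578 and 5751 to 7647. Hi-C had 40, against 0 with DESeq2 (669 at an unadjusted p under 0.05, 7544 by edgeR) and 3 to 113 over left-out libraries.

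Differences in listed pairs changed sign in 1 case, and several fell to 0 or moved away from it: for TKO 24 h minus 0 h, Klf5 went from 1 to -2 with the authors' FDR under 0.1. With that FDR, ES minus MEF H3K27ac was 4 for Klf2 (from 10), 1 for Klf4 (from 2) and 0 for Klf5 (from 8), TKO was -1 for Klf4 (from -3), and KLF4 ES minus day 3 and Hi-C were 0 for Klf4 and Klf5 and, in Hi-C, for Klf2. With 1 bin more on either side, ES minus MEF was 25 for Klf2 and 14 for Klf5, TKO -2, -1 and 9 for Klf2, Klf4 and Klf5, KLF4 ES minus day 3 was 4, 2 and 5, and Hi-C 16, -8 and 8. With 1 count cutoff for all chromosomes, ES minus MEF was 1 for Klf4 and 5 for Klf5, TKO 0 for Klf5 and KLF4 2 for Klf2. With 20 kb or more between anchors, KLF4 was 0 for Klf4. The cause was not tested.

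Replicate numbers are shared between groups, but same-numbered libraries did not deviate together (correlations from -0.05 to 0.04), so the numbers do not pair them. With a replicate block and all libraries separate, the member calls stayed at 1 for MEF and ES and at 1 for TKO, with 2024 called in the TKO table, while the KLF4 table of day 3 and ES went from 532 to 335 and Hi-C from 40 to 74; ES and TKO 0 h had 13 member calls in place of 14, and none of the 12 pairs and 7 bin sums refitted singly changed its call.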
